A study of Mus musculus with 12 samples.

Results

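The genes described here are the histone genes of the mouse whose symbol begins with H1f and a digit, H2ac, H2bc, H3c, H4c or H4f, taken by symbol and grouped into the 5 families H1, H2A, H2B, H3 and H4. The array annotation held 55 such genes, and 48 of them had values, out of 11229 named genes with values. The 48 comprised 3 H1, 14 H2A, 11 H2B, 9 H3 and 11 H4 genes. The remaining 7 genes, 6 of them in the H1 family (H1f1, H1f3, H1f4, H1f6, H1f7 and H1f8) and H2bc1, were blank on every array and are not analysed here. No filter on low signal was applied, so all 48 entered every test.

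Histones are the proteins that DNA is wound around. H2A and H2B bind each other as a dimer, H3 and H4 as a tetramer, and together they form the core of the nucleosome, while H1 binds the linker DNA between nucleosomes. Most genes of these families lie in clusters, have no introns and are transcribed mainly in S phase, when new chromatin is assembled. Their mRNAs end in a stem loop in place of a poly(A) tail, although some of the genes can also make polyadenylated mRNA, chiefly in cells that have left the cell cycle. The RNA of these samples was copied from an oligo-dT primer, so the signals report the transcripts that this primer could copy and not the whole histone mRNA pool. The rule also took in H1f10, a linker histone gene that is expressed outside S phase and is polyadenylated, so the label of replication dependence does not cover it. H2ac1 is known as a testis gene.

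Total RNA of fallopian tubes was measured in 6 female mice on 12 1-colour Illumina arrays, 2 per mouse. Of the mice, 3 were wildtype C57BL6 and 3 were mogp-TAg transgenic mice on the C57BL6 background, and each genotype was represented by 1 mouse aged 7 weeks, 1 aged 8 weeks and 1 aged 9 weeks. The mogp-TAg transgene places the SV40 large T antigen, a viral protein that binds the RB family and p53, behind the mouse oviductal glycoprotein promoter, a promoter of the secretory epithelial cells. The transgene is therefore meant for part of the cells of the organ, and every value below is an average over the whole tube. A difference in such bulk RNA cannot tell more cells of a kind from more RNA per cell. The mouse was the replicate (n = 3 per genotype throughout), and the labels do not say whether the arrays of a mouse share an RNA extract. Arrays differed in brightness before normalization, with medians from 136.9 to 332. Over the 48 genes the normalized log2 values of the arrays of a mouse differed by a median of 0.22. Values are quantile-normalized signals, differences are transgenic minus wildtype on the log2 scale with the SE of the limma fit, and a gene was called where its p-value, adjusted by Benjamini and Hochberg's method across every probe, was below 0.05. A signal below 123.6, the lowest 25% of all probe values, is described as near the floor, where a fold is understated. Signals of different genes come from different probes and were not set against each other.

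The comparison of transgenic with wildtype tubes asked which histone genes differed with the transgene. The families went different ways: H2A genes were mostly higher in the transgenic tubes, H2B genes mostly lower and 5 of 9 H3 genes slightly higher. H4 genes were mostly not called, as were 8656 of all 11229 genes. Of the 48 genes, 16 (33.3%) were higher, where 10.4% of all 11229 genes were, and 11 (22.9%) were lower, where 12.5% of all genes were. The other 21 were not called. An unadjusted p below 0.05 was found for 39 of the 48 genes and for 4176 of all 11229. The median log2 difference was 0.23 over the 48 genes and -0.02 over all genes, and this middle value hides a range from -1.65 to 3.73. In 25 of the 48 genes the 6 arrays of the transgenic mice and the 6 of the wildtype mice did not overlap, against 15.9% of all genes. Among the 27 called genes this held for 22. The mouse means of the genotypes did not overlap in 40 of the 48 genes and in 4619 of all 11229, so a gap between mice alone is common. All 27 differed in 1 direction at all 3 ages, which a call on the same mice nearly requires. Another 11 genes lay near the floor in both genotypes, and 0 of these were called, where 29 of 1960 such genes were over all genes.

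**Figure D1:**
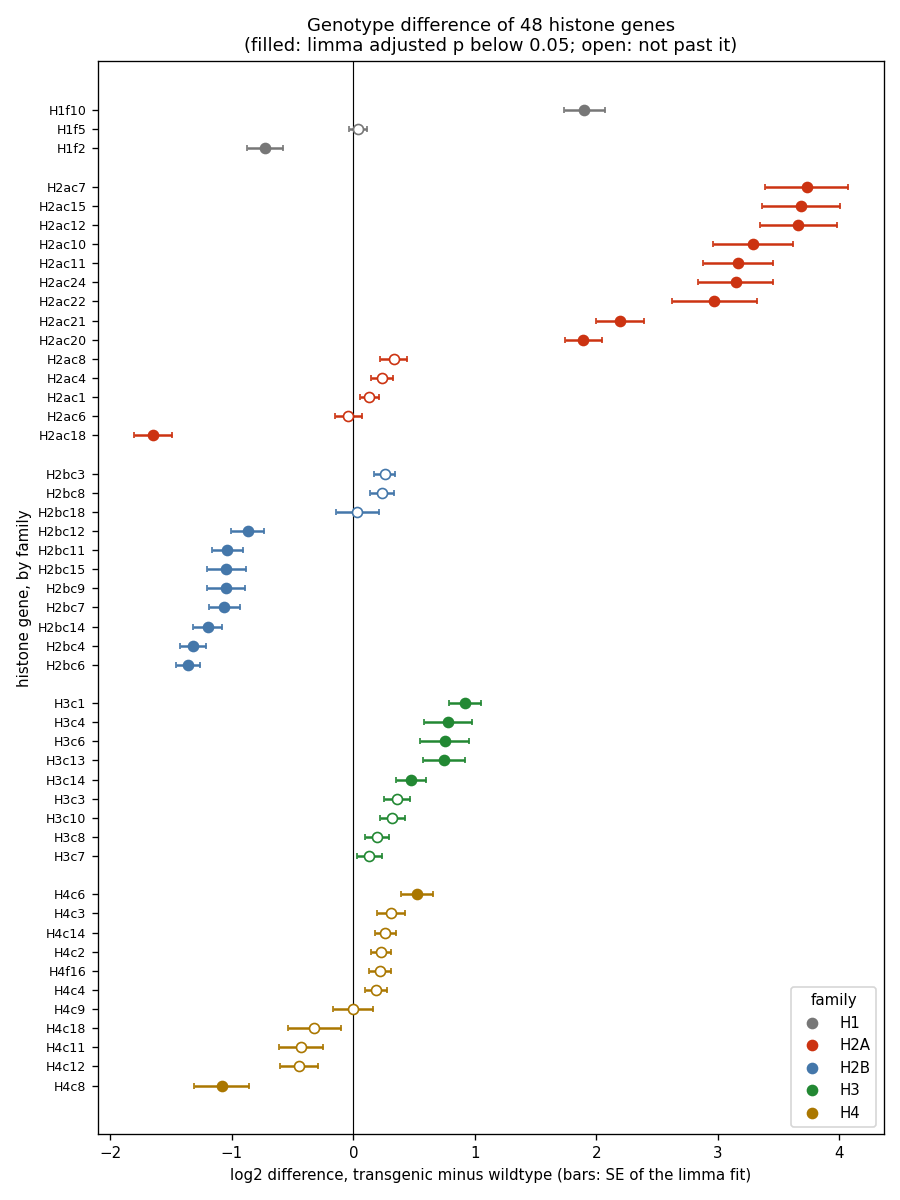
Genotype difference of the 48 histone genes by family, with the log2 difference (transgenic minus wildtype) on the x axis, the gene on the y axis and bars for the SE of the limma fit. Filled points passed an adjusted p of 0.05. The H2A points reach 3.73, the filled H2B points lie between -1.36 and -0.87, and the H3 points lie between 0.13 and 0.92.

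Of the 14 H2A genes, 9 were higher in the transgenic tubes, 1 was lower and 4 were not called, with a family median of 2.58. The 9 higher genes differed by 3.72-fold to 13.3-fold, with adjusted p between 4.23e-04 and 0.00142. H2ac7 had signals of 496, 1450 and 863 in the wildtype mice of 7, 8 and 9 weeks and of 10801, 10650 and 12611 in the transgenic mice. Each transgenic mouse lay far above each wildtype mouse, and the wildtype mice were spread more widely than the transgenic mice. The difference was 3.73 (SE 0.34, adjusted p = 5.72e-04). H2ac15 had 461, 1190 and 806 in the wildtype mice and 8149, 9974 and 11593 in the transgenic mice. The groups were again apart, with the 7-week mouse lowest in both, and the difference was 3.69 (SE 0.32, adjusted p = 5.11e-04). H2ac12 (3.66), H2ac10 (3.29), H2ac11 (3.16), H2ac24 (3.15), H2ac22 (2.97) and H2ac21 (2.19) followed. H2ac20, a gene of the smaller cluster on chromosome 3, had the smallest difference of the 9, with 4515, 5944 and 5982 in the wildtype mice and 17165, 22776 and 21097 in the transgenic mice. Its groups did not overlap, and the difference was 1.89 (SE 0.15, adjusted p = 4.23e-04).

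H2ac18, another gene of the chromosome 3 cluster, went the other way. It had signals of 429, 479 and 574 in the wildtype mice and of 179, 129 and 165 in the transgenic mice. All transgenic mice lay below all wildtype mice, and the gene was 3.14-fold lower (-1.65, SE 0.16, adjusted p = 6.23e-04). The 4 H2A genes that were not called had small differences: H2ac8 0.33 (adjusted p = 0.0765), H2ac4 0.24 (adjusted p = 0.102), H2ac1 0.13 (adjusted p = 0.266) and H2ac6 -0.04 (adjusted p = 0.826). Their wildtype means ran from 94.4 in H2ac1 to 141 in H2ac8, with H2ac1 and H2ac6 near the floor in both genotypes and H2ac4 in the wildtype tubes. The 9 higher genes also shared an order among mice. In all 9 the 7-week mouse was the lowest wildtype mouse, and in 7 of 9 the wildtype order was 8, 9 and then 7 weeks, with the 8-week mouse above the 7-week mouse by 0.40 to 1.56 over the 9 genes. The 7-week mouse was also the lowest wildtype mouse in 4 of the 5 higher H3 genes, in H2ac18 and in H4c6. Each age was 1 wildtype mouse, and the share of such orders over all genes was not counted. H2A genes have closely similar coding sequences, the probe sequences were not used here, and transcripts of several genes may reach the probe of 1 gene. The assignment of a signal to a single H2A gene, and with it the count of 9, is therefore uncertain. The same holds for the H2B genes below, their count and the values of the gene pairs. Probe sequences of the H3 and H4 genes were not checked either, so their assignment to single genes is open too.

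**Figure D2:**
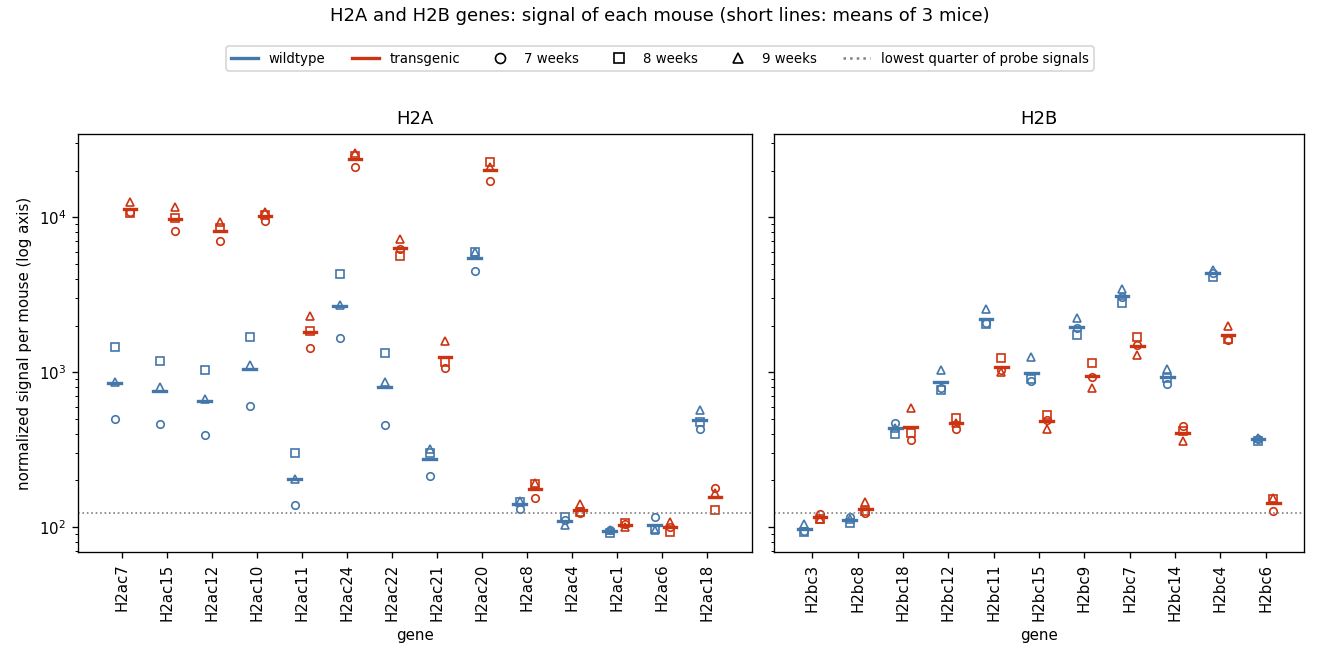
Normalized signal (y axis, log scale) of each mouse for the 14 H2A genes and the 11 H2B genes (x axis), wildtype in blue and transgenic in red, with a symbol for each age and short lines for the means of 3 mice on the log2 scale. The dotted line marks the signal of 123.6. In H2ac7 the wildtype mice lie between 496 and 1450 and the transgenic mice between 10650 and 12611, while in H2bc4 the wildtype mice lie above the transgenic mice.

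Among the 11 H2B genes, 0 were higher, 8 were lower and 3 were not called by limma, with a family median of -1.04 and 10 genes at an unadjusted p below 0.05. The 8 lower genes differed by 1.83-fold to 2.57-fold (adjusted p from 3.46e-04 to 0.00452), a narrower band than that of the H2A genes. H2bc6 had signals of 369, 359 and 375 in the wildtype mice and of 126, 151 and 154 in the transgenic mice. The wildtype mice lay close together and well above the transgenic mice, with a difference of -1.36 (SE 0.10, adjusted p = 3.46e-04). H2bc4 had 4358, 4125 and 4568 in the wildtype mice and 1621, 1636 and 1988 in the transgenic mice. These groups were also apart, and the difference was -1.32 (SE 0.11, adjusted p = 4.24e-04). The other probe of H2bc4 lay near the floor on both sides, with a difference of -0.07 (adjusted p = 0.635).

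H2bc14 (-1.20), H2bc7 (-1.06), H2bc9 (-1.04) and H2bc15 (-1.04) were lower too. H2bc11 had 2082, 2061 and 2541 in the wildtype mice and 1028, 1233 and 998 in the transgenic mice, a difference of -1.04 (SE 0.12, adjusted p = 0.00154). H2bc12 had the smallest difference of the 8, with 794, 768 and 1040 in the wildtype mice and 432, 508 and 473 in the transgenic mice (-0.87, SE 0.13, adjusted p = 0.00452). In both genes every transgenic mouse lay below every wildtype mouse. The 9-week mouse was the highest wildtype mouse in all 8 genes, as it was in 2 of the 9 higher H2A genes. It was also the highest in all 5 higher H3 genes and in H2ac18, H1f2, H1f10, H4c6 and H4c8. This order is therefore not particular to the H2B genes, it rests on 1 mouse, and its share over all genes was not counted. H2bc3 (0.26, adjusted p = 0.0735) and H2bc8 (0.24, adjusted p = 0.128) were not called, H2bc3 near the floor in both genotypes and H2bc8 in the wildtype tubes. H2bc18 had 468, 400 and 435 in the wildtype mice and 365, 405 and 591 in the transgenic mice. These groups overlapped, with the 7-week transgenic mouse the lowest and the 9-week transgenic mouse the highest of the 6, and the difference was 0.03 (95% interval -0.38 to 0.45, adjusted p = 0.916). The other probe of H2bc18 differed by 0.11 (adjusted p = 0.349).

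H2A and H2B genes often stand head to head, sharing the DNA between their start sites. Such pairs were sought among the 44 measured genes that had a RefSeq promoter window (described below), with start sites at most 300 bases apart. Genes without a window, H2bc4 among them, could not be paired. The search gave 5 pairs, all on chromosome 13, with start sites 164 to 249 bases apart. In 4 of the 5 pairs the H2A gene was higher and its H2B neighbour lower. H2ac7 (3.73) stood 174 bases from H2bc7 (-1.06), and H2ac15 (3.69) stood 164 bases from H2bc15 (-1.04). H2ac12 (3.66) stood 178 bases from H2bc12 (-0.87), and H2ac11 (3.16) stood 249 bases from H2bc11 (-1.04). In the pair of H2ac8 and H2bc8, 180 bases apart, neither gene was called (0.33, SE 0.11, and 0.24, SE 0.10). The promoter windows of 3 H2A genes of these pairs are shown because they span the DNA that both genes of a pair share. The windows of H2bc14 and H2ac18 are shown as those of lower genes outside the pairs. Sequences are from RefSeq on GRCm38.p6, 250 bases before to 50 after the start, and read 5′ to 3′ along the gene. Capitals mark exact matches on either strand to the histone octamer ATTTGCAT, to CCAAT, to the TATA box TATAAA and to the E2F-like words TTTCCCGC, TTTGGCGC, TTTCGCGC and TTTGCCGC. The H2ac7 window lies at chr13:23574131-23574430, plus strand, the H2ac12 window at chr13:22035594-22035893, minus strand, and the H2ac8 window at chr13:23571171-23571470, minus strand. The H2bc14 window lies at chr13:21721794-21722093, plus strand, and the H2ac18 window at chr3:96245247-96245546, plus strand.
H2ac7: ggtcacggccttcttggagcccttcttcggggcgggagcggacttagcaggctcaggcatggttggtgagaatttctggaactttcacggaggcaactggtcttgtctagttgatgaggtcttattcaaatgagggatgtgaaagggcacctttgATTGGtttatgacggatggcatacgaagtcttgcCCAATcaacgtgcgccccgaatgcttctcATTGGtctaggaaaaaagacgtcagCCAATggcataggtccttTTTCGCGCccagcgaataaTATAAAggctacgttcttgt
H2ac12: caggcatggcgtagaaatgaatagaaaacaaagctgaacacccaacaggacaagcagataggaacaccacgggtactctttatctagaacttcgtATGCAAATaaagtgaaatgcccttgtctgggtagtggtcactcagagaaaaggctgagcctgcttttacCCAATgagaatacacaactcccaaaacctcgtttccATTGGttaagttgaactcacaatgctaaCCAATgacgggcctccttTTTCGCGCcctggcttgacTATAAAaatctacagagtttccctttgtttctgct
H2ac8: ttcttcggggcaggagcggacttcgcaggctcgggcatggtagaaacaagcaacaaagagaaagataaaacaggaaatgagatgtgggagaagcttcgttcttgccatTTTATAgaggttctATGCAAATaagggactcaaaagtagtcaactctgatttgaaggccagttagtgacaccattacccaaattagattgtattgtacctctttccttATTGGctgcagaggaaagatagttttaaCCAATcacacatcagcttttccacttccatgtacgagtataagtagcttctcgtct
H2bc14: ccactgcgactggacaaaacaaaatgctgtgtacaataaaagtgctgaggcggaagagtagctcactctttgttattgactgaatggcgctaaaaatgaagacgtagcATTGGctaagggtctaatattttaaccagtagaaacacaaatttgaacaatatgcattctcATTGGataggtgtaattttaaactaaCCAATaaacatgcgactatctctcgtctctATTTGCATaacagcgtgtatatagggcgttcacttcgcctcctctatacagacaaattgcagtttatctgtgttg
H2ac18: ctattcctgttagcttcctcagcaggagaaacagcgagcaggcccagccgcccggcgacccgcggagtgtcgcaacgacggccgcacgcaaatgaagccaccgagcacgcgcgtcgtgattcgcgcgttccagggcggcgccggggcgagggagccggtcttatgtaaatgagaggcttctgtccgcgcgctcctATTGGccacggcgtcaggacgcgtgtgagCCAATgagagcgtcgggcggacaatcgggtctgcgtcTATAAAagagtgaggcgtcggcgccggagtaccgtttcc

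Windows were found for 44 of the 48 genes, 45 windows in all. H2bc6 had 2 windows and H2bc4 had none, so the 8 windows of lower H2B genes belong to 7 genes. CCAAT, which the factor NF-Y binds, was present in 14 of 14 H2A windows, 11 of 11 H2B windows and 7 of 7 H3 windows, in 2 of 10 H4 windows, and in 37.4% of all 32851 windows of the table. TATAAA was in 11 of 14 H2A, 5 of 11 H2B, 2 of 7 H3 and 6 of 10 H4 windows, against 13.6% of all. The octamer, a site of the POU factor Oct-1, was in 6 of 14 H2A and 6 of 11 H2B windows and in 0 of the H1, H3 and H4 windows, against 1.74% of all. It was present in the windows of all 4 H2A and all 3 H2B genes that were not called. Of the called genes it was present in 2 of 9 higher H2A windows (H2ac12 and H2ac20) and in 3 of 8 windows of lower H2B genes. An E2F-like word stood in 5 of the 9 windows of higher H2A genes, those of H2ac7, H2ac10, H2ac11, H2ac12 and H2ac22. It stood in 3 of 8 windows of lower H2B genes, those of H2bc7, H2bc11 and H2bc12, whose windows overlap those of their H2A partners, and in 2.26% of all windows. It stood in 0 of the 4 H2A and 0 of the 3 H2B windows of genes not called, and in 0 of the H1, H3 and H4 windows, those of the higher H3 and H4 genes included. Both strands were searched, so a word in the shared DNA of these pairs counted for the higher and the lower gene alike. In the sequences shown, TTTCGCGC stands shortly before the TATA box in H2ac7 and H2ac12 and is missing from H2ac8, where ATGCAAAT, the octamer on the opposite strand, is found, as it is in H2ac12. A match of letters is a description and does not show that a factor was bound.

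**Figure D3:**
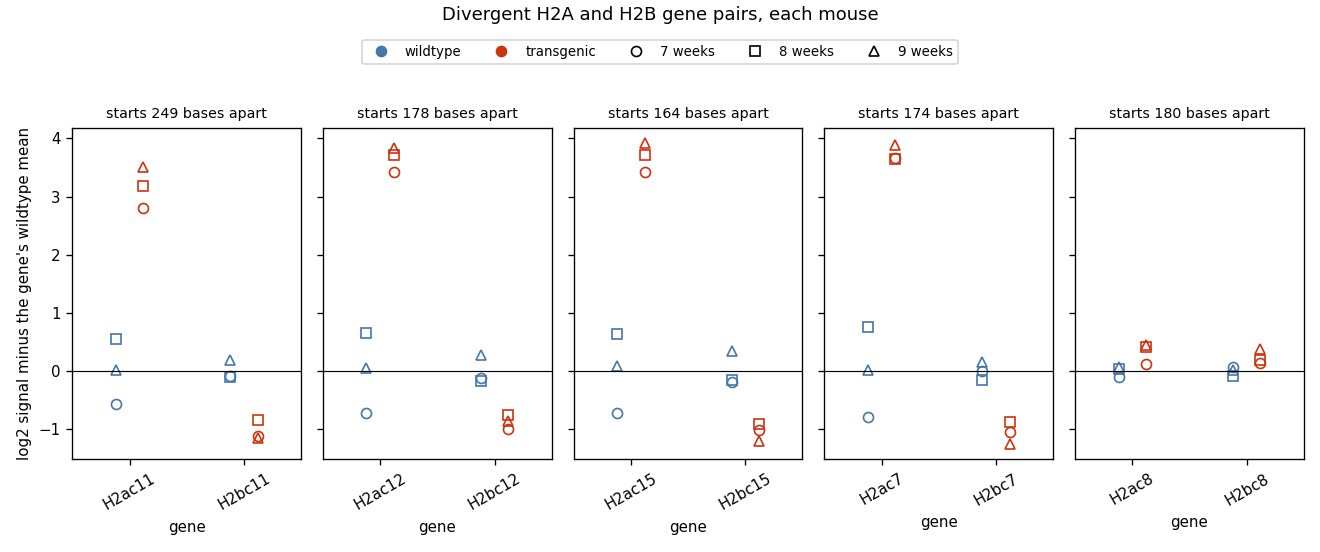
Signals of the 5 divergent pairs in each mouse, as log2 signal minus the wildtype mean of the gene (y axis) for the H2A gene and its H2B neighbour (x axis), wildtype in blue and transgenic in red, with a symbol for each age. In 4 pairs the transgenic mice lie above the wildtype mice for the H2A gene and below them for the H2B gene, and in H2ac8 and H2bc8 both differences stay at 0.33 or less.

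All 9 H3 genes had a positive difference. Of these, 5 were higher in the transgenic tubes, 0 were lower and 4 were not called, with a median of 0.47 and 7 genes at an unadjusted p below 0.05. The higher genes differed by 1.39-fold to 1.89-fold. H3c1 had signals of 136, 139 and 146 in the wildtype mice and of 216, 299 and 288 in the transgenic mice. The transgenic mice all lay above the wildtype mice, and the difference was 0.92 (SE 0.13, adjusted p = 0.00332). H3c4 had 259, 261 and 299 in the wildtype mice and 338, 534 and 567 in the transgenic mice, with the 7-week transgenic mouse closest to the wildtype mice (0.78, SE 0.20, adjusted p = 0.0289). H3c6 (0.75, adjusted p = 0.0368) was also higher. H3c13, of the chromosome 3 cluster, had 2765, 2670 and 2999 in the wildtype mice and 3874, 4360 and 6185 in the transgenic mice. Its mice did not overlap, although its single arrays did. The 9-week transgenic mouse was the highest, and the difference was 0.75 (SE 0.17, adjusted p = 0.0206).

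H3c14, from the same cluster, had 2361, 2374 and 2593 in the wildtype mice and 3071, 3154 and 4026 in the transgenic mice (0.47, SE 0.12, adjusted p = 0.0309). Its dimmer probe was lower, with 175, 191 and 205 in the wildtype mice and 123, 146 and 160 in the transgenic mice (-0.42, SE 0.12, adjusted p = 0.0432). The probes of H3c14 therefore disagreed in direction, and over their mean the difference was 0.03 (adjusted p = 0.894). H3c3 (0.36, adjusted p = 0.052), H3c10 (0.32, adjusted p = 0.068), H3c8 (0.19, adjusted p = 0.211) and H3c7 (0.13, adjusted p = 0.407) were not called. H3c3, H3c8 and H3c10 were near the floor in both genotypes and H3c7 in the wildtype tubes. In a fit on the 12 arrays, with the array repeat as a replicate block and the mouse as a random block (correlation 0.311), H3c3 and H3c10 were called (adjusted p = 0.016 and 0.0267). Which of these changes brought the calls was not separated. Calls over all genes also rose in that fit, from 1171 to 1443 higher and from 1402 to 1750 lower. The H3 count of 5 depended on which mice entered: it was 1 without the 7-week wildtype, the 8-week wildtype or the 8-week transgenic mouse, 2 without either 9-week mouse and 7 without the 7-week transgenic mouse. Higher calls over all genes moved the same way. They were 1171 with every mouse, 1214 without the 7-week transgenic mouse and 613 to 1034 without any other mouse.

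Of the 11 H4 genes, 1 was higher, 1 was lower and 9 were not called, with a median of 0.19. These shares, 9.09% higher and 9.09% lower, lay near the 10.4% and 12.5% over all genes. Over the 7 H4 genes above the floor in at least 1 genotype the median was -0.32, with 2 positive and 5 negative differences. H4c6 had signals of 301, 327 and 352 in the wildtype mice and of 397, 480 and 541 in the transgenic mice (0.53, SE 0.13, adjusted p = 0.0271). Its mice did not overlap, although its single arrays did. Its call was lost without any mouse other than the 7-week transgenic mouse (adjusted p from 0.0505 to 0.102). H4c8 had 859, 801 and 1306 in the wildtype mice and 355, 544 and 489 in the transgenic mice. The 9-week wildtype mouse stood above the other wildtype mice, all transgenic mice lay below all wildtype mice, and the difference was -1.08 (SE 0.22, adjusted p = 0.0142). H4c12 (-0.45, adjusted p = 0.0876), H4c11 (-0.43, adjusted p = 0.137) and H4c18 (-0.32, adjusted p = 0.341) had negative differences that did not pass. H4c9 had 432, 401 and 554 in the wildtype mice and 374, 479 and 533 in the transgenic mice, and these overlapped throughout (0.00, 95% interval -0.40 to 0.39). The remaining 5 genes, H4c3 (0.31), H4c14 (0.26), H4c2 (0.23), H4f16 (0.22) and H4c4 (0.19), did not pass. Of these, 4 lay near the floor in both genotypes and H4c4 in the wildtype tubes. In the fit on 12 arrays with the replicate block H4c12 (adjusted p = 0.0332) and H4c14 (adjusted p = 0.0353) were called, and so was H2ac8 of the H2A genes (adjusted p = 0.0294).

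In the H1 family, H1f10 was higher, H1f2 lower and H1f5 not called. H1f10 had signals of 199, 188 and 224 in the wildtype mice and of 628, 707 and 983 in the transgenic mice. The transgenic mice lay far above the wildtype mice at every age (1.90, SE 0.17, adjusted p = 5.44e-04). The dimmer probe of H1f10 went the same way, with 143, 132 and 139 against 258, 334 and 435 (1.28, SE 0.18, adjusted p = 0.00294). H1f2, a linker histone gene of the large cluster, had 4464, 4336 and 6254 in the wildtype mice and 2802, 3022 and 3141 in the transgenic mice. The highest transgenic mouse lay below the lowest wildtype mouse, and the difference was -0.73 (SE 0.15, adjusted p = 0.0136). Without the 8-week transgenic mouse it was -0.74 (adjusted p = 0.0558). H1f5, whose genotype means were both near the floor, ranged from 117 to 126 over the mice and differed by 0.04 (adjusted p = 0.755).

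**Figure D4:**
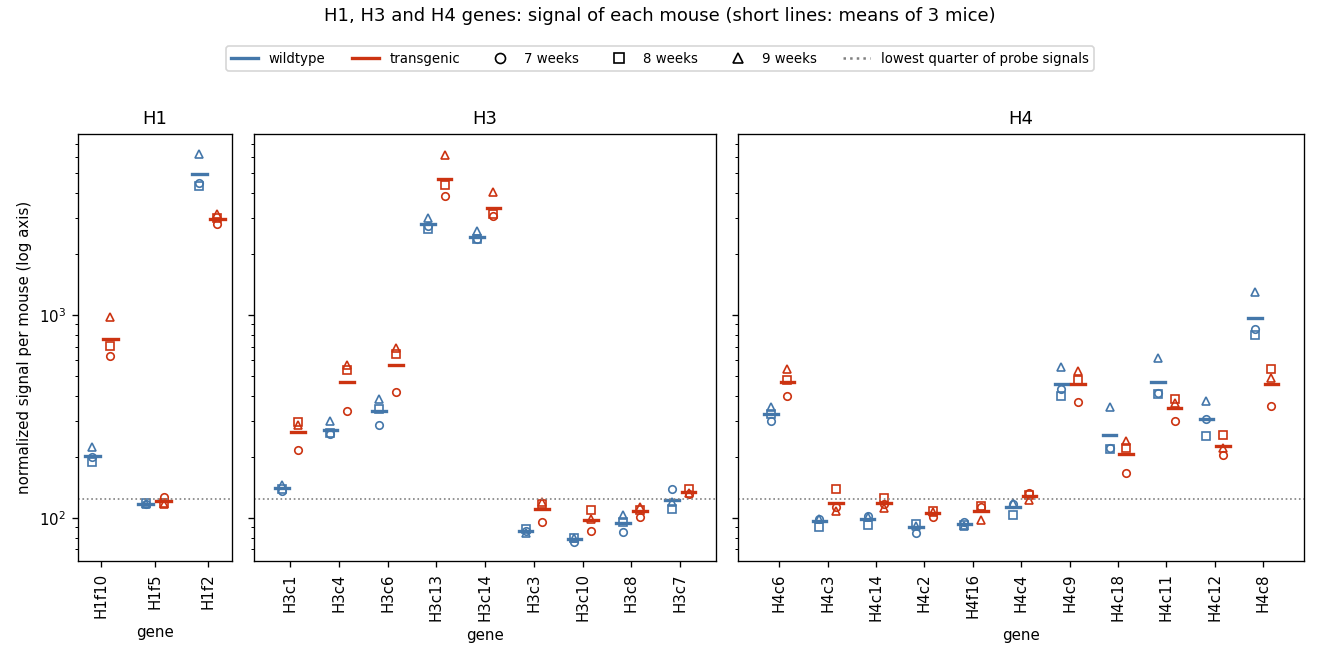
Normalized signal (y axis, log scale) of each mouse for the 3 H1, 9 H3 and 11 H4 genes (x axis), wildtype in blue and transgenic in red, with a symbol for each age and short lines for the means of 3 mice on the log2 scale. The dotted line marks the signal of 123.6. H1f10 (188 to 224 against 628 to 983) shows the widest gap, and in H4c9 the groups overlap.

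The counts are also given by chromosome, without a test between chromosomes. On chromosome 13, which holds 39 of the 48 genes, 7 of 11 H2A genes were higher and 0 lower, and 8 of 10 H2B genes were lower and 0 higher. On chromosome 3, with 7 genes, 2 of 3 H2A genes were higher and 1 lower, both H3 genes were higher, and the H2B gene H2bc18 and the H4 gene H4c14 were not called. The 2 genes on chromosome 6 were H1f10, which was higher, and H4f16, which was not called.

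The comparison across ages asked whether the gap between genotypes widened or narrowed with age. A linear genotype by age term was called by limma in 0 of the 48 genes and in 0.0% of all 11229 genes. At an unadjusted p below 0.05 it picked 2 of the 48 genes and 801 of all genes, and the lowest adjusted p among the 48 was 0.755. These were H2bc14, whose difference was -0.92, -1.13 and -1.55 at 7, 8 and 9 weeks, and H2bc18, with -0.36, 0.02 and 0.44. Their adjusted p was 0.755 in both cases. Each of these single-age values rests on 1 mouse of each genotype. The H2A family median was 2.85, 2.01 and 2.69 at the 3 ages, the H2B median -0.92, -0.73 and -1.29, and the H3 median 0.38, 0.46 and 0.63. At 8 weeks the H2A and H2B medians were both closest to 0. A shared age trend was likewise called in 0 of the 48 genes and in 0.0% of all genes, with 11 of the 48 and 1007 of all genes at an unadjusted p below 0.05. The lowest p belonged to H2ac21 (0.28 per week, adjusted p = 0.493) and H3c6 (0.29 per week, adjusted p = 0.551). With 2 and 3 residual degrees of freedom, neither fit shows that the differences were the same at all ages.

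Lists of genes that work with histones were read from the same fit. Of 33 measured S phase and cell cycle genes, 31 were higher and 0 lower, with a median of 2.07. Top2a (3.50), the topoisomerase that untangles DNA, Mcm5 (3.38), a subunit of the replicative helicase, and the kinase gene Cdk1 (3.08) led. Rrm2 (1.18), Pcna (1.10) and Ccna2 (0.75) had the smallest differences among those that passed. The summed signal of this list was 9175, 11399 and 9370 in the wildtype mice of 7, 8 and 9 weeks and 37461, 50119 and 52709 in the transgenic mice. The 8-week wildtype mouse was the highest and the 7-week mouse the lowest wildtype mouse, as in 7 of the 9 higher H2A genes. The summed signals of the chaperone, macrophage and neutrophil, and lymphocyte lists had this order of wildtype mice too, so it is not particular to the S phase list. The part of this list in the H2A values was not tested.

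Of 32 measured histone chaperones and acetyltransferases that act on new histones, 18 were higher and 0 lower, with a median of 0.53. Chaf1b (2.49) and Chaf1a (1.66) encode subunits of CAF-1, which places H3 and H4 on replicated DNA. Mcm2 (2.48), which also binds histones, and Mis18a (2.18), which takes part in loading the centromeric histone, were among the 3 highest. Nasp (1.31) and Asf1b (1.12), carriers of H3 and H4, and Hat1 (0.82), which acetylates new H4, were also higher. Of the chaperone genes that passed, Daxx (0.52), Tspyl1 (0.52) and Hjurp (0.41) had the smallest differences. The H3 and H4 genes described above had medians of 0.47 and 0.19, and of 0.75 and -0.32 over those above the floor in at least 1 genotype.

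Among 11 measured genes listed as replication-independent or variant histones, 6 were higher and 0 lower, with a median of 0.52. The list shares H1f10, which was among the 6, and H4f16, which was not called, with the families above. There H4f16 is counted as an H4 gene. Cenpa, the centromeric H3 variant, had signals of 369, 654 and 599 in the wildtype mice and of 4234, 5432 and 5383 in the transgenic mice (3.25, SE 0.22, adjusted p = 3.12e-04). The H2A variants H2ax (3.14-fold), known for its phosphorylation at DNA breaks, and H2az1 (3.03-fold) were higher. The genes of H3.3, the H3 form deposited outside S phase, were higher as well, with H3f3a at 0.63 (adjusted p = 0.0161) and H3f3b at 0.52 (adjusted p = 0.00715). H3f3a lost its call under median scaling (adjusted p = 0.0712) and without the 7-week wildtype, the 8-week transgenic or the 9-week transgenic mouse (adjusted p from 0.0520 to 0.0740).

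Of 29 measured genes for histone transcription and for the processing of the mRNA 3′ end, 7 were higher and 1 lower, with a median of 0.21. These shares, 24.1% higher and 3.45% lower, stand beside 10.4% and 12.5% over all genes. Srrt (0.68), a partner of the cap-binding complex, Nelfe (0.53), a subunit of the NELF complex, and Nfyb (0.53), a subunit of the CCAAT-binding factor, had the largest differences among those that passed. Zfp473 (0.38) and Eri1 (0.29), an exonuclease that trims histone mRNA, had small ones, both with low signals. Lsm10, a U7 snRNP protein, was lower (-0.36, SE 0.10, adjusted p = 0.0401), and its partner Lsm11, near the floor, differed by 0.12 (adjusted p = 0.331). Slbp, Npat and Casp8ap2 are not analysed here.

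**Figure D5:**
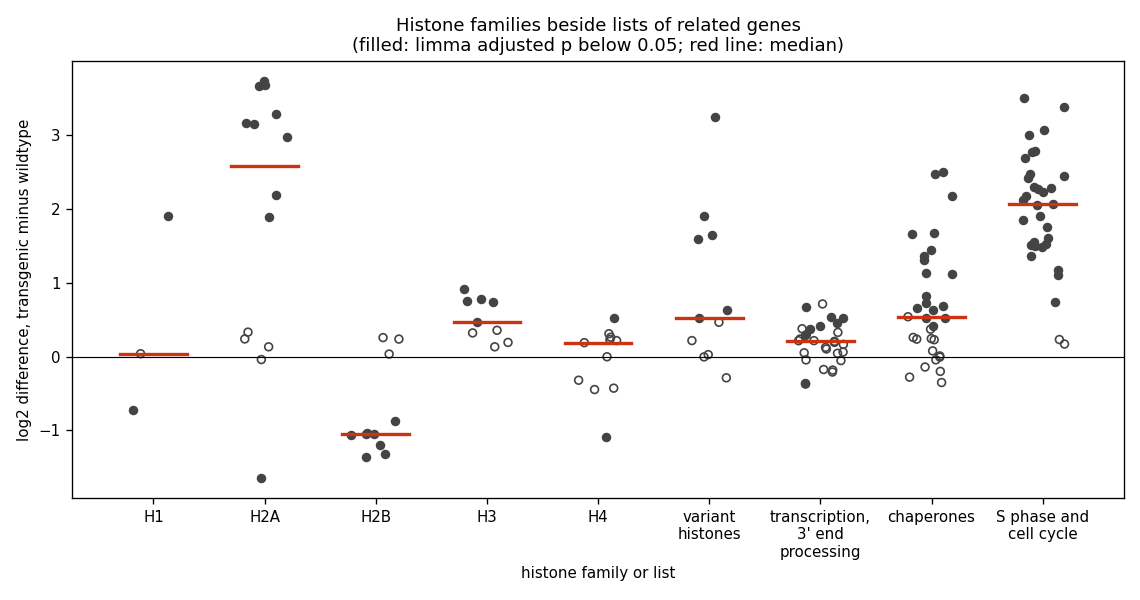
Log2 difference, transgenic minus wildtype (y axis), of each gene of the 5 histone families and of 4 lists of related genes (x axis), with filled points past an adjusted p of 0.05 and a red line at each median. The medians are 2.58 for H2A, -1.04 for H2B, 0.47 for H3, 0.19 for H4 and 2.07 for the S phase list. Genes near the floor are included in these medians.

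Markers of cell types also differed between the genotypes. Of 12 measured markers of ciliated cells, which do not divide, 11 were lower and 0 higher, with a median of -1.25. Their summed signal ran from 11748 to 14304 in the wildtype mice and from 3468 to 5217 in the transgenic mice, and 1 of the 12 lay near the floor in both genotypes. Of 10 smooth muscle markers 9 were lower, with sums of 60171 to 66512 against 39917 to 47530. Of 7 mesothelial markers 7 were lower, with sums of 6008 to 8466 against 1746 to 2689. The 8 H2B genes, H2ac18, H4c8 and H1f2 were lower in the same comparison, as were 1402 of all 11229 genes. A shared direction follows from the calls and does not link these genes to the lists. Endothelial markers had 4 of 9 lower, adipocyte markers 2 of 5 lower, fibroblast markers 1 of 9 higher and 3 lower, macrophage and neutrophil markers 1 of 7 higher and 1 lower, and lymphocyte and ovary markers 0 of 7 called each, with 3 and 0 at an unadjusted p below 0.05. The 7-week transgenic mouse stood apart in 2 of these lists. Its summed macrophage and neutrophil signal was 9829, against 3220 to 5470 in the other mice, and its summed ovary signal was 2395, against 688 to 1099. Leaving it out took the H3 count from 5 to 7, as given above, and calls over all genes from 1171 to 1214 higher and from 1402 to 1463 lower. Whether its macrophage or ovary signals bear on these counts was not tested. Of 9 markers of the secretory epithelium 3 were higher and 1 lower, and the sums of 31359 to 37104 and 34316 to 39894 overlapped. Ovgp1, which names the promoter of the transgene, differed by -0.24 (adjusted p = 0.0831). The part of these cell types in the histone differences was not tested.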

How the data were processed

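The files hold 12 arrays of 6 mice. The authors deposited a score per probe, found from its values to be the log signal standardized within each array, and GenomeStudio 1.6.0 is named in the submitters' processing notes. The scale and centre of each array had to be solved from the decimal grid of the values, which returned 100% of the values of every array as signals with 1 decimal. A scanner table whose 24 columns match no single sample was not used.

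Signals were quantile-normalized, put on the log2 scale and averaged over the 2 arrays of a mouse, in R 4.3.3 with limma 3.58.1 (lmFit and eBayes, two-sided, Benjamini-Hochberg over 16664 probes), and with Python 3.11.15 for the rest. The script was tested on simulated data. The genotype, interaction and age fits had 4, 2 and 3 residual degrees of freedom. With 3 mice per genotype, their number limits the precision. A gene was read from its probe with the highest mean. Of the tested probes, 15687 had 1 symbol in the platform annotation and 977 had none. The array repeat numbers of the labels paired the arrays: repeat differences of different mice correlated at 0.109 to 0.638 over 15 pairs of mice.

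In each family values by mouse are given for up to 4 called genes, the 2 highest and 2 lowest differences. In each list of related genes, up to 3 genes at each end of those that passed are named, plus fixed genes. H2bc18, H4c9 and the mouse values of additional probes were added after their values were seen. The genes and lists were chosen with earlier results of these data known. Alternatives were background correction, normalization, a filter on dim probes, the probe rule, the variance model, array weights, blocks for repeat and age, single repeats and leaving out each mouse. The sources used here do not name the genome build of the array annotation.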

Additional observations from a re-analysis of the deposited data

How the results depend on the processing

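The counts of histone genes stayed within 1.5 times the 16 higher and 11 lower genes in all 17 alternatives. They ran from 11 higher without the 7-week wildtype, the 8-week wildtype or the 8-week transgenic mouse to 24 with array quality weights, and from 10 to 12 lower. Leaving out each mouse gave 11 to 19 higher and 10 to 12 lower. In the fit on 12 arrays with the replicate block of the array repeat and the mouse as a random block they were 20 and 12. Over all genes, calls ran from 613 higher and 684 lower without the 8-week transgenic mouse to 1723 and 2046 with array quality weights. The replicate block gave 1443 higher and 1750 lower over all genes, against 1171 and 1402 in the fit on mouse means. The genotype by age and age trend counts were 0 in each alternative run for them, which was all but age as a block. The 9 higher H2A and 8 lower H2B genes kept their calls in every alternative, as 11 of 16 higher and 10 of 11 lower genes did in all. The exceptions were H3c4, H3c6, H3c13, H3c14, H4c6 and H1f2, mostly when a mouse was left out. Changes of sign occurred in genes that were not called. H4c9 was 0.00146 under median scaling, 0.0150 on the deposited values, 0.0535 with array quality weights and 0.0485 in repeat 2. H2ac1 was -0.0494 in repeat 1, and in repeat 2 H1f5 was -0.0261, H2ac6 0.00573 and H2bc18 -0.0900. With a mouse left out, H4c9 ran from -0.113 to 0.142, H2ac6 from -0.0920 to 0.0519 and H2bc18 from -0.172 to 0.176. The causes were not tested. Signals near the floor in both genotypes limit what can be said of 11 of the 48 genes. The same limit holds for H2ac4, H2bc8, H3c7 and H4c4, which lay near the floor in the wildtype tubes.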
